A study of Mus musculus with 16 samples.

Results

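Gene expression was compared between colonic epithelial cells of offspring that could not transport their own secretory IgA (SIgA) and of offspring that could, both after dextran sulfate sodium (DSS). The comparison took 8 of the 16 arrays of the series, chosen by their titles: 4 with DSS whose offspring were Pigr-/- against 4 with DSS whose offspring were Pigr+/-. Each difference is the mean of 2 differences, 1 at each level of passive SIgA. The mice were C57BL/6, 70 days old and matched for sex, and all 8 arrays came from animals that drank 2% DSS for 8 days and were labelled as having colitis. Each array carried RNA of 3 mice, and each group had 2 such pools.

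The 4 groups were Pigr-/- offspring of Pigr+/- dams (passive SIgA from milk, no transport of their own), Pigr+/- offspring of Pigr+/- dams (passive SIgA and their own transport), Pigr-/- offspring of Pigr-/- dams (neither) and Pigr+/- offspring of Pigr-/- dams (their own transport, no passive SIgA). Every mouse on the Pigr+/- side thus carried 1 null allele, and offspring with both alleles intact were not analysed here. The same contrast in the 8 untreated arrays served as a comparison. With pools of 3 mice the spread between arrays is that between pools and not between single mice. Precision is limited by having 2 pools a group.

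The polymeric immunoglobulin receptor, the product of Pigr, sits on the basolateral face of gut epithelial cells, binds dimeric IgA made by plasma cells of the lamina propria, carries it through the cell and releases it into the lumen with a cleaved piece of the receptor attached. Without the receptor an animal still makes IgA but delivers little of it to the gut surface, where it coats commensal bacteria and limits their contact with the epithelium. DSS injures the colonic epithelium, lets bacteria reach the tissue and sets off an inflammatory response with repair of the crypts.

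The labelled cell type was checked with its markers, whose signals are not comparable between probe sets as amounts of transcript. Epcam, an adhesion molecule of epithelial cells, lay between 12.44 and 12.61 in Pigr-/- pools and between 12.51 and 12.67 in Pigr+/- pools, on the log2 scale of RMA intensities used throughout. The goblet cell mucin Muc2 lay between 13.97 and 14.10 in Pigr-/- pools and between 13.91 and 14.09 in Pigr+/- pools. The T cell gene Cd3e (6.79 to 7.01 in Pigr-/- pools, 6.74 to 7.11 in Pigr+/- pools) stayed near the array medians of 6.96 to 7.09, which are taken over the genes tested. This does not show how many cells other than epithelium the isolates held. Averaged over the SIgA groups, the median DSS effect was 0.70 for neutrophil markers and 0.35 for monocyte and macrophage markers, against 0.02 for T cell genes. The leading principal component of the 8 arrays did not divide the genotypes: Pigr-/- pools ran from -9.93 to 12.92 on it, and Pigr+/- pools from -19.75 to 23.95. The ends of that range were the 2 pools with passive and active SIgA, which were also the least alike of any group after DSS (SD of their difference over genes 0.317, against 0.187 to 0.223 in the other 3 groups). Eif2s3y, a Y-linked gene, read 6.98 and 9.23 in these pools, against 7.12 to 8.17 in the other 6, and the part of unequal pools in any result was not tested.

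Pigr itself is the gene that was deleted, and its promoter is given as the sequence from which the only gene that passed is transcribed. It lies at chr1:130826434-130826733 on the plus strand of GRCm38.p6 (RefSeq), from 250 bases before to 50 bases after the start of the transcript. Capitals mark an E-box (CACGTG) 71 bases before the start and a match to the GAS element (TTCNNNGAA), read by STAT factors, 40 bases after it.
Pigr: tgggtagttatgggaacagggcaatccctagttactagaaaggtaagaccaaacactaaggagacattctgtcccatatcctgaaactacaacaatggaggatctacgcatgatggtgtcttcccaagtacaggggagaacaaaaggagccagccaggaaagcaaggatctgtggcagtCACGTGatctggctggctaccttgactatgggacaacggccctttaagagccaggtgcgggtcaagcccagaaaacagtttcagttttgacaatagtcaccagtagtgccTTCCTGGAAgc
Both strands were searched for each motif, and 7.15% of the 32851 promoters of the same length hold the E-box letters and 8.3% the GAS letters. The matches printed here do not overlap with each other.

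Pigr was lower in Pigr-/- pools. With passive SIgA it read 11.34 and 11.39 in Pigr-/- pools, against 12.38 and 12.38 in Pigr+/- pools. Without passive SIgA it read 11.48 and 11.58 in Pigr-/- pools, against 12.46 and 12.44 in Pigr+/- pools. The genotypes did not overlap, and every array was on the side of its label. The mean was 11.45 ± 0.106 in Pigr-/- pools and 12.41 ± 0.041 in Pigr+/- pools (SD, n = 4 each), a difference of -0.96 ± 0.07 (SE, limma adjusted p = 0.000147), or 1.95-fold lower. It was -1.01 with passive SIgA (adjusted p = 0.00514) and -0.92 without (adjusted p = 0.0157), and these 2 values did not differ detectably (interaction 0.09 ± 0.15, adjusted p = 1.0). The signal left in Pigr-/- pools was far above the array medians, and the labels do not state which part of the gene the null allele lacks, so whether the probe set lies in it was not tested.

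No other gene passed. Of 19938 genes tested, limma called 1 lower (Pigr, 0.00502%) and 0 higher (0%) at an adjusted p under 0.05, and the second smallest adjusted p was 0.537. At an unadjusted p under 0.05 there were 330 genes (1.66%), 168 higher and 162 lower. Chance alone would give on average a proportion of 0.05 of all genes, so such p values were fewer than by chance. The data bounded most genes closely. The 95% interval of the difference had a median half-width of 0.23 on the log2 scale, it lay within a 1.5-fold change in either direction for 98% of genes, and within 1 log2 unit of 0 for 99.9%. Missing the threshold does not show equal levels. Ifi205, described below, was the 1 gene with a difference beyond 1 log2 unit.

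Pigr lies on chromosome 1, and the genes nearest to it were examined as a group. Whether DNA inherited beside the null allele had a part in their values was not tested. Of the 40 measured genes on each side, 0 passed by limma, and the median difference was -0.00 (all genes 0.00). Of the 80, 2 were higher and 4 lower at an unadjusted p under 0.05, against 0.843% and 0.813% of all genes. In 3 of the 80 the Pigr-/- pools lay above and in 2 below both Pigr+/- pools at each passive level, against 1.75% and 1.27% of all genes. The largest differences in this stretch belonged to 2 genes close to each other, Pm20d1 and Ctse, 17 and 14 measured genes from Pigr.

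Pm20d1, a secreted enzyme that joins fatty acids to amino acids, read 8.86 and 8.92 in Pigr-/- pools with passive SIgA, against 8.22 and 8.54 in their Pigr+/- counterparts. Without passive SIgA it read 9.10 and 8.70 in Pigr-/- pools, against 8.34 and 8.27 in Pigr+/- pools. All 4 Pigr-/- pools lay above all 4 Pigr+/- pools, with a difference of 0.55 ± 0.11, the smallest unadjusted p of any gene higher in Pigr-/- pools among those named, yet it did not pass (limma adjusted p = 0.9998). The untreated mice gave a separate reading. There Pm20d1 was 9.39 and 9.32 in Pigr-/- pools with passive SIgA, against 8.96 and 9.07 in Pigr+/- pools. It was 9.14 and 9.26 in untreated Pigr-/- pools without passive SIgA, against 8.28 and 8.66 in Pigr+/- pools. In untreated mice Pm20d1 was thus higher in Pigr-/- pools (0.53, limma adjusted p = 0.0138), and the difference after DSS was of the same size (interaction 0.02 ± 0.16, adjusted p = 0.97).

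Ctse encodes cathepsin E, an aspartic protease of endosomes. It read 8.98 and 8.53 in Pigr-/- pools with passive SIgA, against 9.77 and 9.96 in Pigr+/- pools, and 9.36 and 8.98 in Pigr-/- pools without passive SIgA, against 9.37 and 9.27 in Pigr+/- pools. The pools lay apart with passive SIgA (-1.11) and overlapped without it (-0.15), and the mean difference of -0.63 ± 0.14 did not pass (limma adjusted p = 0.9998). In untreated mice Ctse was lower in Pigr-/- pools (-0.70, adjusted p = 0.0113). There the pools did not overlap at either level, at 9.70 and 9.89 in Pigr-/- against 10.50 and 10.48 in Pigr+/- with passive SIgA, and 8.75 and 9.37 in Pigr-/- against 9.74 and 9.76 in Pigr+/- without it. In the untreated pairs without passive SIgA taken alone, Pm20d1 (0.73) and Ctse (-0.69) differed in the same directions and neither passed (adjusted p = 0.411), and Pm20d1 also missed the threshold when 1 untreated array was left out (adjusted p up to 0.0707). Tmem37 (-0.33 ± 0.09) and Ccdc93 (-0.22 ± 0.08), 40 and 32 genes to the other side of Pigr, were lower in each Pigr-/- pool after DSS than in any Pigr+/- pool, did not pass, and read 0.04 and -0.08 in untreated mice.

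**Figure D1:**
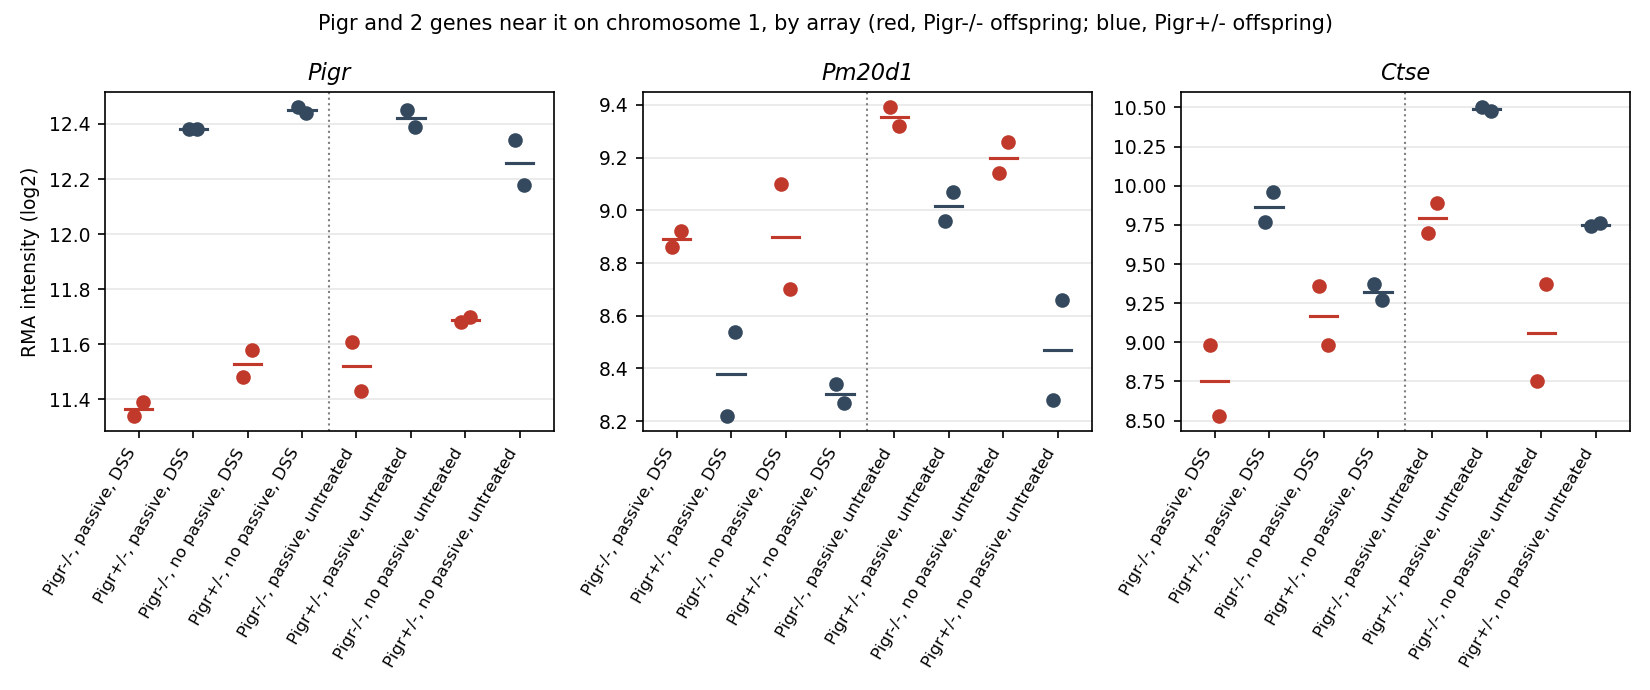
RMA intensity (log2) of Pigr, Pm20d1 and Ctse in each of the 16 arrays, by group, with DSS left of the dotted line and untreated right of it; points are pools of 3 mice and short lines group means, red for Pigr-/- and blue for Pigr+/- offspring. Pigr lies at 11.34 to 11.58 in Pigr-/- pools after DSS and at 12.38 to 12.46 in Pigr+/- pools, and in untreated mice Pm20d1 lies higher and Ctse lower in Pigr-/- pools at each passive SIgA level.

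**Figure D2:**
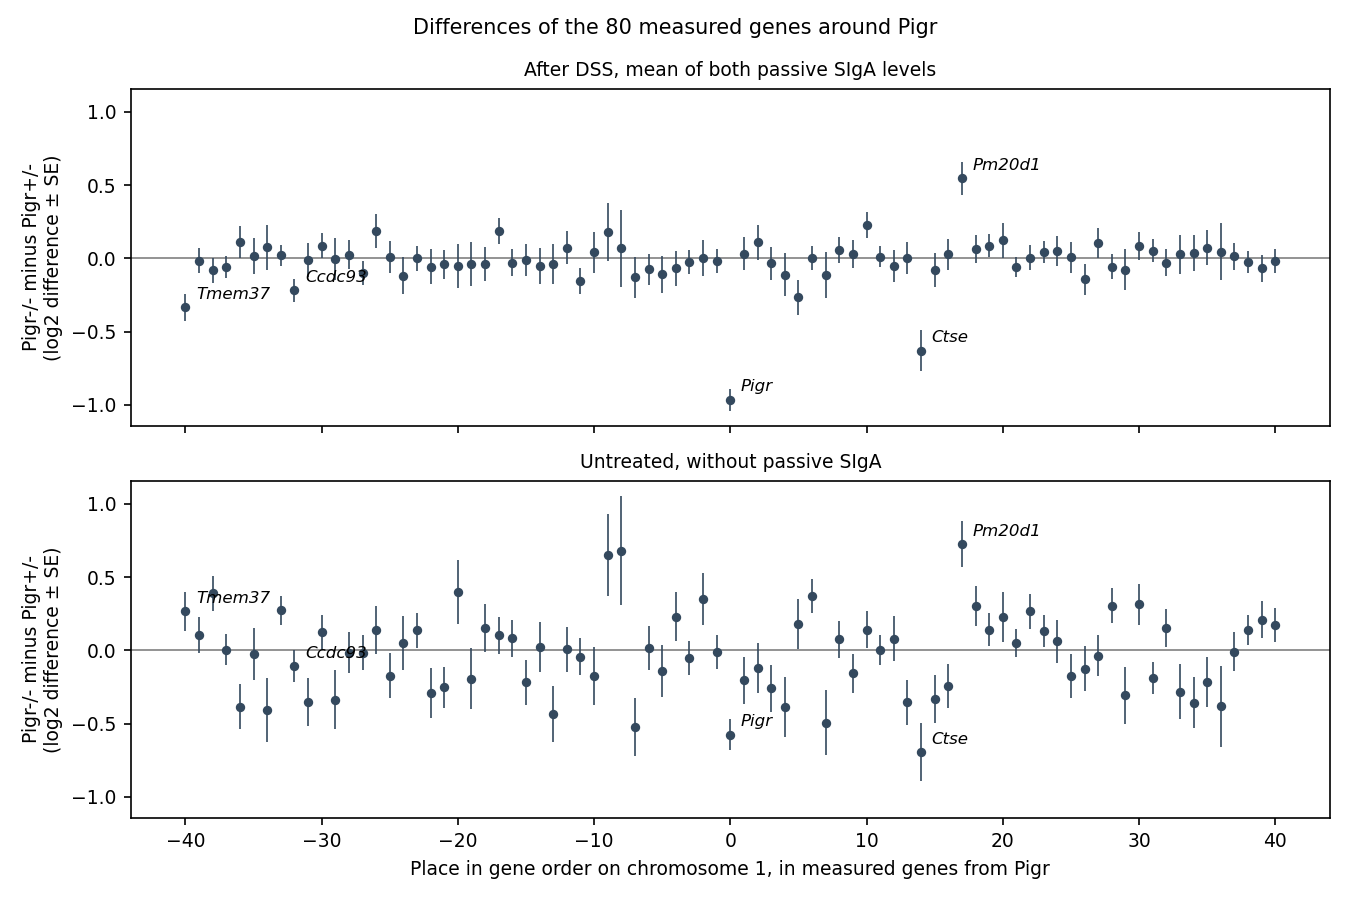
Difference between Pigr-/- and Pigr+/- pools (log2, with its SE) of Pigr and the 40 measured genes on each side of it in gene order on chromosome 1, after DSS (above) and in untreated mice without passive SIgA (below). Pigr (-0.96), Ctse (-0.63) and Pm20d1 (0.55) stand away from the other neighbours after DSS, and the untreated values spread more widely. The lower panel is 1 difference over 4 arrays, where the upper panel averages 2 over 8. Over all genes the quartiles without passive SIgA, each from 1 difference over 4 arrays, were -0.08 and 0.07 after DSS. They were -0.22 and 0.12 in untreated mice, and the reason for the wider spread was not tested.

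Over the whole of chromosome 1, which holds 5.65% of the genes tested, 2.5% of genes had an unadjusted p under 0.05, against 1.61% on the other chromosomes. It held 14 of the 100 genes with the smallest p, Pigr among them, and the reason for these shares was not tested. Among the genes named below, Slc30a10, Snrpe, Ifi205, Slamf7, Niban1, Cxcr2 and Rgs13 lie on it. Snrpe, a protein of the spliceosomal core, was higher in untreated Pigr-/- pools too (0.71, limma adjusted p = 0.0147, and up to 0.0823 with 1 untreated array left out), beside 0.46 ± 0.15 after DSS, which did not pass.

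Since Pigr alone passed, the other genes are described without a claim that they changed. They are the 12 in each direction (Pigr counted) with the smallest p among genes whose Pigr-/- pools lay on 1 side of both Pigr+/- pools at each passive level. Symbols of unnamed, predicted, small RNA and receptor genes were left aside. The pattern was found in 349 genes higher (1.75%) and 254 genes lower (1.27%) in Pigr-/- pools. If the pools of a passive level were exchangeable, chance alone would give it in a larger share of genes in each direction. The pattern is therefore no sign of an effect. Apart from Pigr, which passed, these genes were chosen for this separation, so its mention for single genes lends them no support. All of the genes so chosen other than Pigr had a limma adjusted p of 0.9998, so the gene with the second smallest (0.537) was not among them.

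By size the leading gene on the lower side was Ifi205 (by p it was Klb, described below), which belongs to a family of interferon-inducible DNA-binding proteins and is encoded on chromosome 1. It read 6.94 and 6.09 in Pigr-/- pools with passive SIgA, against 7.74 and 8.48 in Pigr+/- pools. Without passive SIgA it read 6.84 and 6.74 in Pigr-/- pools, against 7.26 and 8.07 in Pigr+/- pools. The Pigr-/- pools were all below the Pigr+/- pools, though the Pigr+/- pools spread over more than 1 log2 unit, and the difference was -1.24 with a 95% interval from -1.83 to -0.64. Averaged over the SIgA groups, DSS raised this gene by 1.45 (limma adjusted p = 0.00027), and the untreated difference was -0.26.

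Il6, the gene of the inflammatory cytokine interleukin 6, read 4.76 and 4.58 in Pigr-/- pools with passive SIgA, against 5.04 and 5.40 in Pigr+/- pools. Without passive SIgA it read 4.32 and 4.44 in Pigr-/- pools, against 4.79 and 4.94 in Pigr+/- pools. All Pigr-/- pools were below all Pigr+/- pools, a separation that the rule of choice already asked for within each passive level. The levels were far under the array median, and the difference was -0.52 ± 0.14. DSS raised Il6 by 0.60 on average (adjusted p = 0.0013). The promoters of these 2 inducible genes are given because they hold letters that match response elements of the pathways the gene groups below are about. Whether these matches work as such elements was not tested. Ifi205 lies at chr1:174031706-174032005 on the minus strand and Il6 at chr5:30012864-30013163 on the plus strand (GRCm38.p6, RefSeq, same window), each printed in the direction of transcription. In Ifi205 capitals mark matches to the interferon-stimulated response element (TTTC, any 2 bases and TTTC). Of these, 1 lies on the opposite strand, 134 bases before the start, and 1 on the printed strand, 24 bases after it. In Il6 capitals mark an NF-kB match (GGG, any 2 bases and TTTCC), 44 bases before the start. They also mark an AP-1 match (TGANTCA), 249 bases before it.
Ifi205: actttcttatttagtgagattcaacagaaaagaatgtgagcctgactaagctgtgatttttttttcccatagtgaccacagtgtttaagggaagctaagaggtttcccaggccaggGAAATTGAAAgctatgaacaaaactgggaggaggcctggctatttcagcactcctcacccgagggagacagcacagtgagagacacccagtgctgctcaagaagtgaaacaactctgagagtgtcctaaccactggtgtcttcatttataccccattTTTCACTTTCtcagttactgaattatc
Il6: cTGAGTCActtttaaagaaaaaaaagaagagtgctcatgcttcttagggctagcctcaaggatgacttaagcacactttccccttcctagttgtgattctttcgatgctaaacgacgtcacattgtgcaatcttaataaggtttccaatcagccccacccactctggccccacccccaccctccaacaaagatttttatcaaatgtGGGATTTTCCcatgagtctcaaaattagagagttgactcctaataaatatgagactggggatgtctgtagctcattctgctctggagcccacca
Of all promoters 3.44% hold the letters of the interferon element, 1.63% those of the NF-kB element and 7.81% those of the AP-1 element. The matches describe these letters only.

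The other genes on the lower side also had varied functions. Hspb1, a small heat shock protein, was 9.60, 8.70, 9.09 and 9.06 in Pigr-/- pools (the pair with passive SIgA first, here and below) and 10.23, 10.15, 9.47 and 9.24 in Pigr+/- pools, a difference of -0.66 ± 0.18. Its Pigr-/- pools lay below their counterparts at each passive level while the ranges of all 4 against all 4 overlapped. Gbp4, an interferon-induced GTPase, was 6.11, 5.90, 5.79 and 5.88 in Pigr-/- pools and 6.63, 6.94, 5.99 and 6.21 in Pigr+/- pools, a difference of -0.52 ± 0.14 (-0.78 with passive SIgA and -0.26 without). Saa2, an acute phase protein, was 5.69, 5.82, 5.92 and 5.91 in Pigr-/- pools and 6.13, 5.91, 6.38 and 6.27 in Pigr+/- pools (-0.33 ± 0.08). In Saa2, as in Hspb1 and Gbp4, the pools lay apart at each passive level, and all 4 against all 4 overlapped. Niban1, a stress-induced regulator of translation, differed by -0.52 ± 0.14 and Slamf7, a receptor of lymphocytes and plasma cells, by -0.37 ± 0.09.

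Klb encodes beta-klotho, the co-receptor through which the hormones FGF15 and FGF21 act in the mouse. It read 6.57, 6.56, 6.68 and 6.60 in Pigr-/- pools and 6.90, 6.90, 7.03 and 6.90 in Pigr+/- pools after DSS, with no overlap and a difference of -0.33 ± 0.07. In untreated mice the order was not the same: 7.69, 7.79, 7.50 and 7.39 in Pigr-/- pools and 7.42, 7.34, 7.38 and 7.53 in Pigr+/- pools, a difference of 0.18. DSS lowered Klb by 0.74 on average over the SIgA groups (fit value -0.74, limma adjusted p = 1.11e-06). Slc37a2, a sugar phosphate exchanger (-0.46 ± 0.10), and the glycolytic enzyme Eno3 (-0.41 ± 0.10) were 2 further genes that DSS lowered (-1.72 and -1.09) and that read lower again in Pigr-/- pools. Upp1, which salvages uridine, differed by -0.41 ± 0.11.

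The genes on the higher side, Pm20d1 apart, had varied functions. Cyp2c39, a cytochrome P450, read 5.09, 4.44, 4.54 and 4.96 in Pigr-/- pools and 4.31, 3.81, 4.35 and 4.32 in Pigr+/- pools (0.56 ± 0.15). Far2, which reduces fatty acyl-CoA to alcohols, read 8.47, 8.66, 8.67 and 8.52 in Pigr-/- pools and 8.41, 8.43, 8.05 and 7.93 in Pigr+/- pools (0.37 ± 0.09). Aqp1, a water channel, read 8.80, 9.03, 8.60 and 8.52 in Pigr-/- pools and 8.40, 8.23, 8.27 and 8.41 in Pigr+/- pools (0.41 ± 0.11). In all 3 genes, chosen for separation within each passive level, every Pigr-/- pool was above every Pigr+/- pool. Slc30a10, a manganese exporter of the cell surface (0.32 ± 0.08), Polr1b, a subunit of RNA polymerase I (0.32 ± 0.10), Tut1, which adds uridines to U6 small nuclear RNA (0.26 ± 0.08), and the ubiquitin ligase Mid1 (0.41 ± 0.13) differed by like amounts. Lrmda (0.47 ± 0.15), Bhlhb9 (0.34 ± 0.10) and Cyp2c50 (0.30 ± 0.09), a second cytochrome of the same subfamily, completed the 12.

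**Figure D3:**
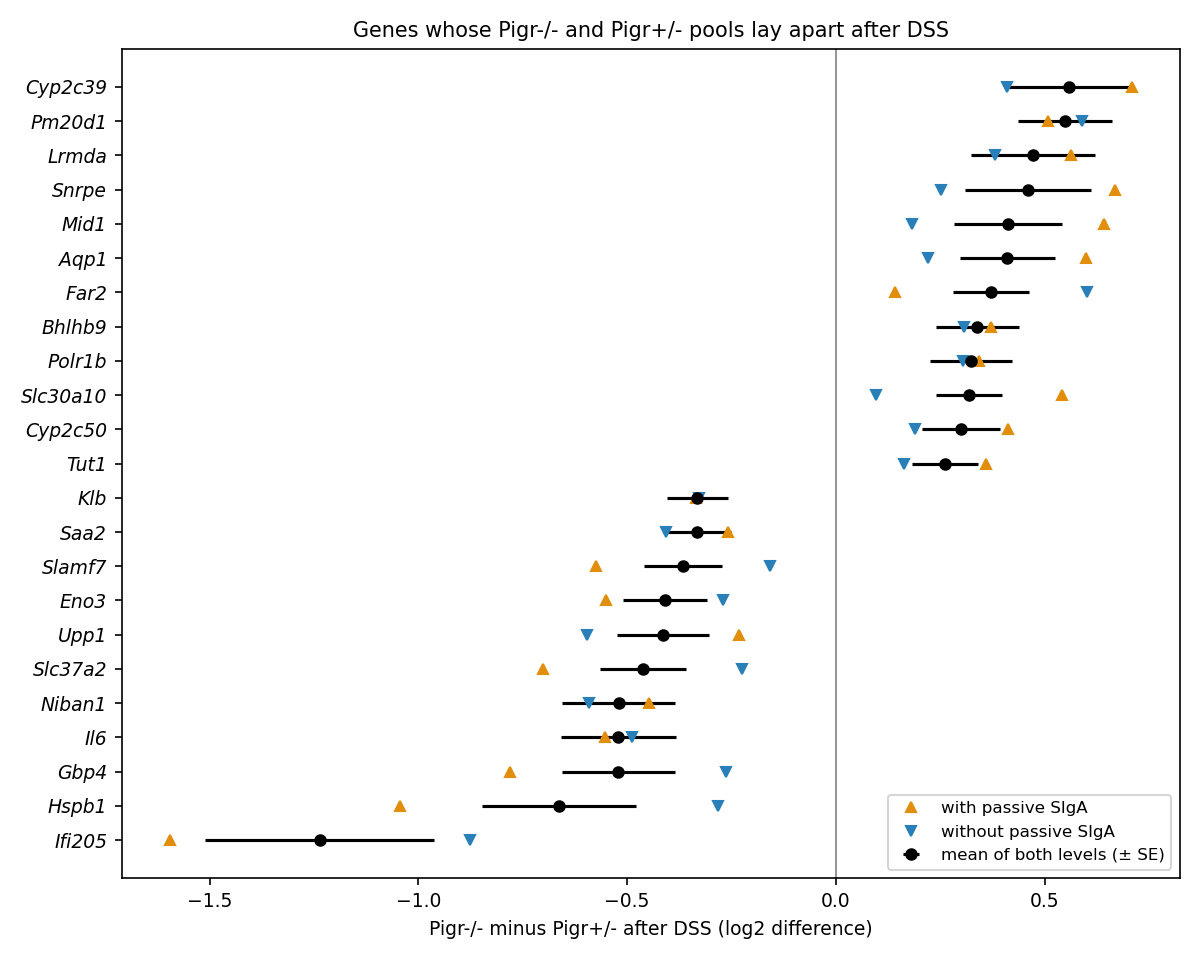
Difference between Pigr-/- and Pigr+/- pools after DSS (log2) of the 23 genes other than Pigr named by the rule on separated pools; black points are means over both passive SIgA levels with SE, orange and blue triangles the differences with and without passive SIgA. Ifi205 is the farthest at -1.24, and no gene shown passed the test across all genes.

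Immune response genes were then read by list. With 1 array left out, the median of each of the 30 lists described here moved by over 1.5 times in at least 1 case, and that of 18 turned its sign. Of 33 cytokines and chemokines measured, 0 passed (0 higher and 6 lower at an unadjusted p under 0.05, against 0.843% and 0.813% of all genes), and 28 (84.8%) read below 0, against 48.6% of all genes. The median difference was -0.13 (all genes 0.00), and -0.08 without replicate 2 of the Pigr-/- pools with passive SIgA. The mean level of the list was 7.79 and 7.49 in Pigr-/- pools with passive SIgA, against 7.83 and 7.95 in Pigr+/- pools. Without passive SIgA it was 7.63 and 7.62 in Pigr-/- pools, against 7.72 and 7.70 in Pigr+/- pools. Both Pigr-/- pools were thus below both Pigr+/- pools at each level, narrowly so for 1 pool with passive SIgA.

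Ccl3, which attracts macrophages and neutrophils, read 9.62, 8.82, 9.26 and 9.01 in Pigr-/- pools and 10.62, 10.09, 9.65 and 8.89 in Pigr+/- pools (-0.63 ± 0.19), so that the pools overlapped without passive SIgA. Ccl2, which attracts monocytes, read 8.04, 7.12, 7.15 and 7.31 in Pigr-/- pools and 7.65, 8.16, 7.66 and 8.65 in Pigr+/- pools (-0.62 ± 0.27). Cxcl9, an interferon-induced attractant of T cells, read 7.97, 7.43, 7.85 and 7.79 in Pigr-/- pools and 7.93, 8.43, 8.15 and 8.28 in Pigr+/- pools (-0.44 ± 0.16). With Il6 above, these were the 4 members with the smallest p, and none passed.

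Markers of monocytes and macrophages are given beside this list. Of 27 measured, 20 read below 0 and the median difference was -0.10. With passive SIgA 23 read below 0 (median -0.17), as did 28 of the 33 cytokines and chemokines (median -0.18). Without it the lists parted: 12 macrophage markers read below 0 (median 0.03), against 22 cytokines and chemokines (median -0.08). The macrophage median lay between -0.03 and -0.04 when replicate 1 of either pair of Pigr+/- pools, or replicate 2 of the Pigr-/- pools with passive SIgA, was left out. Their mean level ran from 6.34 to 6.47 in Pigr-/- pools and from 6.35 to 6.60 in Pigr+/- pools. The mannose receptor Mrc1 (-0.28 ± 0.11) and the oxidase subunit Cybb (-0.38 ± 0.16) had the smallest p. None of the list passed, and its part in the cytokine values was not tested. In RNA of a cell isolate, fewer cells of a type and less RNA per cell cannot be told apart. Of 21 neutrophil markers 11 read below 0 (median -0.03), and the chemokine receptor Cxcr2 (0.41 ± 0.16) and the granule protein Ngp (0.40 ± 0.16), those with the smallest p, read higher.

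Interferon-stimulated genes were read in the same way. Of 30 measured, 0 passed (0 higher and 4 lower at an unadjusted p under 0.05, against 0.843% and 0.813% of all genes), 24 read below 0 and the median was -0.08. The median was -0.05 without replicate 2 of the Pigr+/- pools, or replicate 1 of the Pigr-/- pools, that had no passive SIgA. Without passive SIgA 29 of the 30 read below 0 (median -0.22), whereas with passive SIgA 14 did (median 0.04). The list mean was 7.93 and 8.07 in Pigr-/- pools without passive SIgA, against 8.14 and 8.28 in Pigr+/- pools, and 8.10 and 8.06 in Pigr-/- pools with it, against 8.18 and 8.11 in Pigr+/- pools. With passive SIgA the median of the differences was thus above 0 while both list means of Pigr-/- pools were below those of Pigr+/- pools. Beside Gbp4, the members with the smallest p were the immunity-related GTPase Iigp1 (-0.59 ± 0.21), the ubiquitin ligase Dtx3l (-0.24 ± 0.11) and Ifit2, an interferon-induced antiviral protein (-0.47 ± 0.21). Ifit2 read 6.42, 6.79, 6.57 and 6.45 in Pigr-/- pools and 7.09, 6.85, 7.11 and 7.08 in Pigr+/- pools, without overlap.

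Genes that load peptides on MHC class I numbered 14, of which 12 read below 0 (median -0.10), 10 with passive SIgA and all 14 without. That median was -0.07 without replicate 1 of either pair of Pigr-/- pools. The immunoproteasome subunits Psmb8 and Psmb9 led. Psmb8 read 7.47, 7.94, 7.47 and 7.65 in Pigr-/- pools and 7.97, 7.88, 8.08 and 7.95 in Pigr+/- pools (-0.34 ± 0.10), and Psmb9 8.56, 8.59, 8.38 and 8.59 in Pigr-/- pools and 8.92, 8.63, 8.81 and 8.76 in Pigr+/- pools (-0.25 ± 0.09). The Pigr-/- pools were all lower for Psmb9 and overlapped with passive SIgA for Psmb8. Of 9 MHC class II genes 7 read below 0 (median -0.09), 8 with passive SIgA (median -0.18) and 5 without (median -0.00). H2-Eb1 stood at -0.17 ± 0.09, and the class II median was 0.00 without replicate 2 of the Pigr+/- pools with passive SIgA. In neither list did a gene pass by limma. At an unadjusted p under 0.05 there were 0 higher and 2 lower in the class I list and 0 in the class II list. The shares of all genes were 0.843% higher and 0.813% lower.

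Of 26 pattern recognition and NF-kB genes 19 (73.1%) read below 0 (median -0.05, and between -0.01 and -0.03 without replicate 2 of any 1 group), with the NF-kB inhibitor Tnfaip3 at -0.18 ± 0.11 and the bacterial sensor Nod2 at 0.15 ± 0.09. Of 30 antimicrobial defence genes 14 read below 0 and the median was 0.04. The member with the smallest p was S100g, an intestinal calcium-binding protein of the S100 family rather than a known antimicrobial. It read 9.36, 8.91, 8.59 and 8.50 in Pigr-/- pools and 8.01, 7.91, 8.47 and 8.66 in Pigr+/- pools, so that a wide gap with passive SIgA (1.18) stood beside none without it (-0.02). The ribonuclease Ang4 (0.27 ± 0.13) and the acute phase protein Saa1 (-0.28 ± 0.16) went opposite ways.

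IgA and B lineage genes other than Pigr were centred near 0. Of 22 measured, Pigr alone passed, 12 read below 0 and the median was -0.02. Igha, the heavy chain of IgA, named for its role, read 5.05, 5.06, 4.93 and 5.48 in Pigr-/- pools and 5.49, 4.74, 5.26 and 5.29 in Pigr+/- pools (-0.07 ± 0.20), with full overlap. Prdm1, a factor of plasma cells that epithelium also uses, stood at -0.31 ± 0.12 and the B cell surface protein Ms4a1 at 0.16 ± 0.08, both without passing.

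Proliferation and crypt genes followed. Of 29 cell cycle genes 27 read above 0 (median 0.15), and 0 passed by limma. At an unadjusted p under 0.05, 1 was higher and 0 lower, against 0.843% and 0.813% of all genes. The helicase subunit Mcm5 read 9.47, 9.29, 9.02 and 8.99 in Pigr-/- pools and 9.09, 9.02, 8.99 and 8.60 in Pigr+/- pools (0.26 ± 0.10), and the mitotic kinase Plk1 stood at 0.29 ± 0.15 (0.07 without replicate 2, and 0.51 without replicate 1, of the Pigr+/- pools without passive SIgA). The list mean was 8.86 and 8.73 in Pigr-/- pools with passive SIgA, against 8.60 and 8.53 in Pigr+/- pools. Without passive SIgA it was 8.40 and 8.60 in Pigr-/- pools, against 8.67 and 8.15 in Pigr+/- pools, where the genotypes overlapped. Single pools weighed heavily here: the median was 0.04 without replicate 2, and 0.30 without replicate 1, of the Pigr+/- pools without passive SIgA.

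Of 20 crypt stem and progenitor genes 16 read above 0 (median 0.10). Lgr5, the receptor that marks crypt base stem cells, read 7.21, 7.36, 7.55 and 7.09 in Pigr-/- pools and 7.02, 6.63, 6.99 and 7.29 in Pigr+/- pools (0.32 ± 0.12), apart with passive SIgA and overlapping without. Cdca7, a progenitor gene, stood at 0.27 ± 0.11. The crypt median was 0.05 without replicate 2 of the Pigr+/- pools with passive SIgA. None of the list passed, and 2 were higher and 0 lower at an unadjusted p under 0.05, against 0.843% and 0.813% of all genes.

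Differentiated epithelial types were read next. Of 24 goblet cell genes 20 read above 0 with a median of 0.07, led by the stress sensor Ern2 (0.16 ± 0.08). With passive SIgA 14 of them read above 0 (median 0.02), and without it 20 did (median 0.07). None had an unadjusted p under 0.05. Of 31 absorptive colonocyte genes 19 read below 0 with a median of -0.02. Ms4a12 (-0.20 ± 0.08), the water channel Aqp8 (-0.30 ± 0.14) and the carbonic anhydrase Car4 (-0.18 ± 0.08), all of the colonic surface, had the smallest p. Tuft cell genes had a median of 0.05 over 14 members (-0.03 without replicate 2, and 0.11 without replicate 1, of the Pigr+/- pools with passive SIgA). Their leading members were the leukotriene enzyme Alox5 and the G protein regulator Rgs13. Alox5 read 6.70, 6.67, 6.59 and 6.67 in Pigr-/- pools and 6.53, 6.46, 6.46 and 6.39 in Pigr+/- pools (0.20 ± 0.07), without overlap, and Rgs13 stood at 0.45 ± 0.19. Enteroendocrine genes (20, median -0.02) and general epithelial genes (20, median -0.01) were centred near 0.

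Among the functional lists, 35 of 47 xenobiotic metabolism genes read above 0 in the mean of both passive levels (median 0.05). At the single levels the share was near that of all genes. With passive SIgA 27 of the 47 read above 0 (median 0.02), against 10457 of all 19938 genes. Without it 26 did (median 0.03), against 9744 of all genes. The members with the smallest p included the carboxylesterase Ces1g at 0.66 ± 0.22, the retinaldehyde dehydrogenase Aldh1a1 at 0.32 ± 0.10 and the cytochrome Cyp4b1 at 0.30 ± 0.14. The last 2 of these read 0.76 and 0.72 with passive SIgA and -0.13 and -0.11 without. Of 27 ion transport and tight junction genes 18 read below 0 (median -0.04), while the potassium channel Kcnn4 (0.30 ± 0.10) and the pore-forming claudin Cldn2 (0.24 ± 0.11) read higher in Pigr-/- pools. Wound repair genes had a median of 0.02, with the plasminogen activator Plau at -0.23 ± 0.10. Fatty acid oxidation (0.02), sterol synthesis (-0.00), unfolded protein response (0.00), circadian clock (0.04) and immediate early genes (0.04) were centred near 0. Markers of T cells (0.02), fibroblasts (-0.02), smooth muscle (-0.00) and endothelium (-0.03) were too, and the 8 sex-linked genes stood at -0.10. No member of these lists passed by limma.

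**Figure D4:**
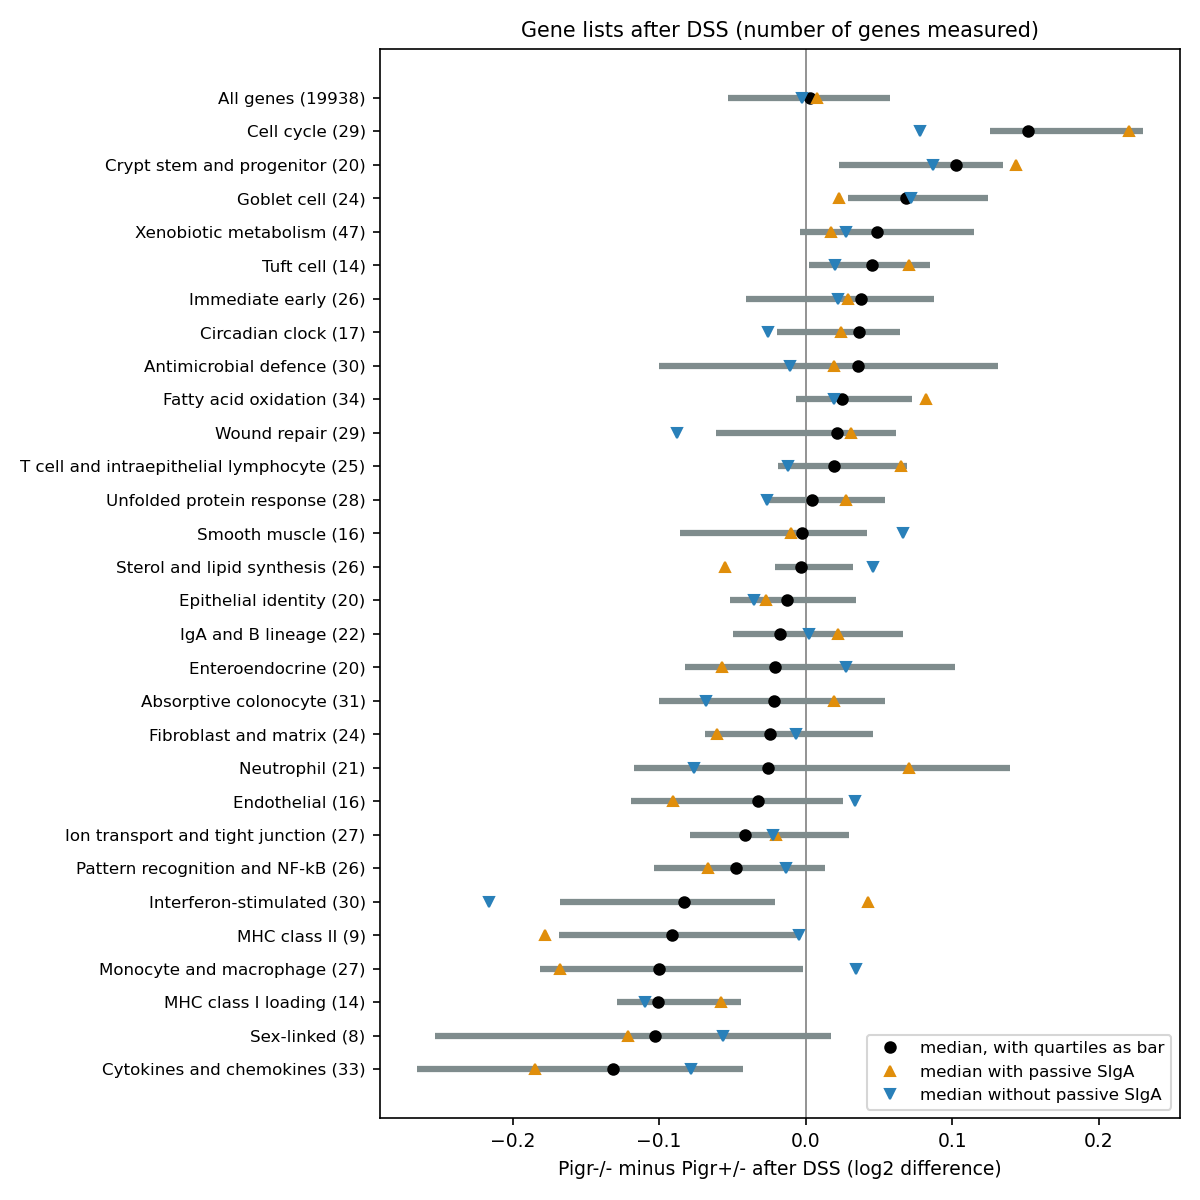
Median difference between Pigr-/- and Pigr+/- pools after DSS (log2) for each gene list, with the number of genes measured; black points and bars are the median and quartiles over genes, orange and blue triangles the medians with and without passive SIgA. Cytokines and chemokines (-0.13) and cell cycle genes (0.15) mark the ends, against 0.00 for all genes, and the 2 triangles lie far apart for interferon-stimulated and macrophage genes.

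The response to DSS as a whole was also read for a difference between genotypes. The 1276 genes that DSS raised (6.4% of those tested) had a median difference between Pigr-/- and Pigr+/- pools of -0.01, and 54.8% of them read below 0. At an unadjusted p under 0.05, 13 of them were higher and 50 lower in Pigr-/- pools, against 0.843% and 0.813% of all genes, and without passive SIgA 753 of them read below 0 (median -0.03). The 1342 genes that DSS lowered (6.73%) had a median of 0.00, and 48.4% of them read below 0, with 30 higher and 22 lower at an unadjusted p under 0.05. Both medians are small beside the median DSS effects of these genes (0.33 and -0.33). The DSS effect includes the same 8 arrays, so these are descriptions. Taken from the 12 arrays without the group with passive and active SIgA, the 673 raised genes (3.38%) had a median of -0.01 and the 737 lowered genes (3.7%) one of 0.01. Of the 673, 11 were higher and 39 lower at an unadjusted p under 0.05, and of the 737, 17 were higher and 14 lower. Those 12 arrays still held the other DSS pools of the contrast, with more Pigr-/- than Pigr+/- pools among them. The choice of genes was thus not independent of the contrast, and these values are descriptions too.

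The design also asked whether loss of active SIgA acted alike in mice that had and had not received passive SIgA. Pigr alone passed at each passive level (1 lower, 0.00502%, and 0 higher, 0%, in each). With passive SIgA 490 genes had an unadjusted p under 0.05 (1.42% higher and 1.04% lower), and without it 283 (0.848% higher and 0.572% lower). No gene passed the test of the difference between the levels (limma, 0 higher and 0 lower, smallest adjusted p = 0.887; 426 genes at an unadjusted p under 0.05, 1.13% with a more positive difference without passive SIgA and 1.01% with a more negative one). The median half-width of that interval was 0.46, so that differences between the levels were less closely bounded than the mean effect.

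The genes with the smallest p for it had opposite differences at the 2 levels. Tmigd1, an adhesion protein of mature epithelial cells, read 9.42 and 9.27 in Pigr-/- pools with passive SIgA, against 8.50 and 8.65 in Pigr+/- pools, and 8.53 and 8.68 in Pigr-/- pools without it, against 8.89 and 9.08 in Pigr+/- pools. Acta2, the actin of smooth muscle and myofibroblasts, read 6.91 and 6.81 in Pigr-/- pools with passive SIgA, against 8.13 and 7.47 in Pigr+/- pools, and 7.39 and 7.66 in Pigr-/- pools without it, against 7.02 and 7.10 in Pigr+/- pools. Inhba, a subunit of activin A, went the same way as Acta2 (-0.51 with passive SIgA, 0.34 without). In all 3 genes the pools did not overlap at either level, and the pools with both kinds of SIgA lay on the same side as those with neither, with the pools of 1 kind on the other side. Acta2 alone passed (adjusted p = 0.0252) when replicate 2 of the Pigr+/- pools with passive SIgA was left out, and had an adjusted p of 0.887 with all arrays. Smooth muscle markers as a list had medians of -0.01 with and 0.07 without passive SIgA.

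**Figure D5:**
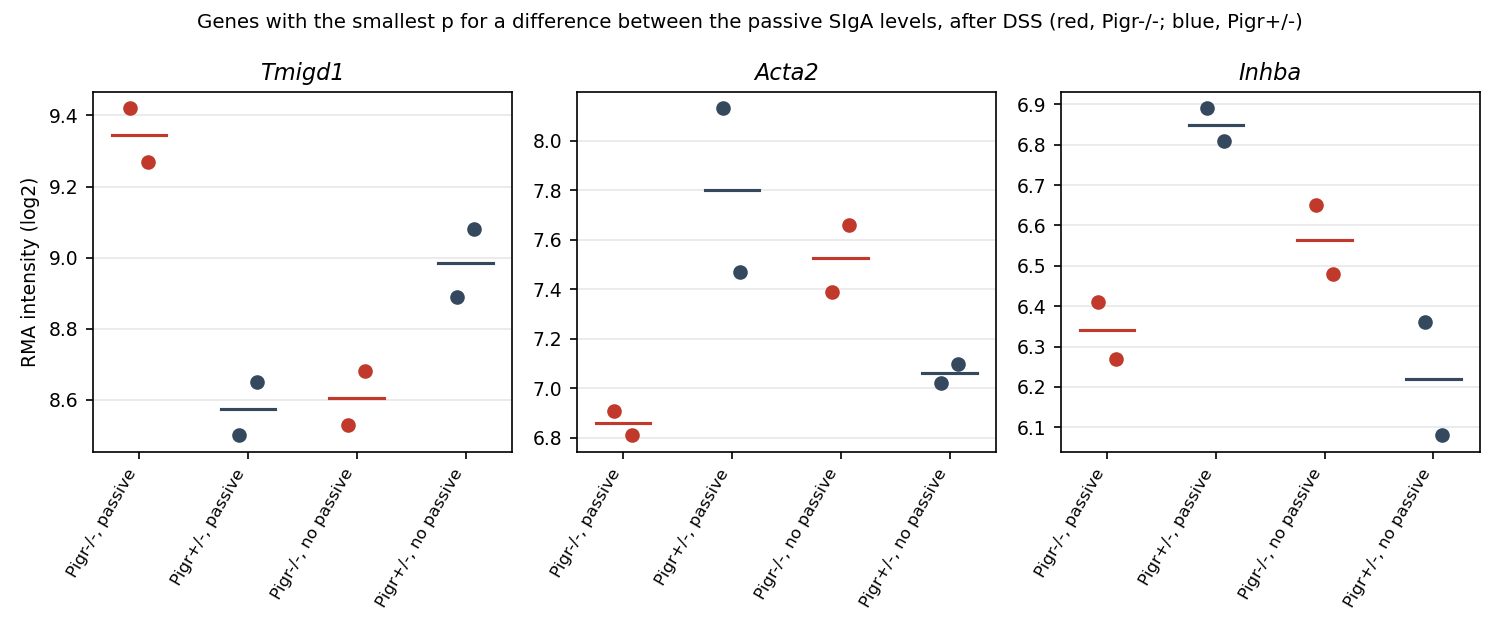
RMA intensity (log2) of Tmigd1, Acta2 and Inhba in the 8 pools after DSS, red for Pigr-/- and blue for Pigr+/- offspring, with and without passive SIgA; lines are group means. The order of the genotypes turns round between the passive SIgA levels in each gene, and none passed the test of that difference with all arrays.

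Set against untreated mice, the contrast after DSS held few genes. In untreated mice limma called 1494 genes, 313 higher (1.57%) and 1181 lower (5.92%) in Pigr-/- pools. The untreated Pigr+/- pools with passive SIgA stood apart from all other arrays, with a mean over chemosensory receptor and keratin-associated genes of 5.26 and 5.41, against at most 4.87 elsewhere. From the pairs without passive SIgA alone 0 genes passed in untreated mice (2402 at an unadjusted p under 0.05, 4.53% higher and 7.51% lower), whereas after DSS the same pairs gave 1. Pigr itself was 11.61, 11.43, 11.68 and 11.70 in untreated Pigr-/- pools and 12.45, 12.39, 12.34 and 12.18 in untreated Pigr+/- pools (-0.74, adjusted p = 0.000286). Its difference after DSS was not detectably larger (-0.23 ± 0.10 between them, adjusted p = 0.415).

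The test of the difference between the contrasts after DSS and without it called 168 genes, 167 with a more positive difference after DSS (0.838%) and 1 with a more negative one (0.00502%), Klb (-0.51 ± 0.10, limma adjusted p = 0.0428). From the pairs without passive SIgA 0 passed (740 at an unadjusted p under 0.05, 2.29% more positive and 1.42% more negative), and Klb stood at -0.32 (adjusted p = 0.924). Cyp2c39 was among the 167 (1.30 ± 0.21, adjusted p = 0.0141, and 0.84, adjusted p = 0.924, from those pairs). In untreated mice it read 4.33, 4.31, 4.33 and 4.05 in Pigr-/- pools and 5.39, 5.36, 4.71 and 4.53 in Pigr+/- pools, the opposite order to that after DSS at both passive levels.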

How the data were processed

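RNA of isolated colonic epithelial cells, pooled from 3 mice for each array, was hybridised to an Affymetrix whole-transcript array. The deposited values are log2 intensities made with RMA, per the submitters' processing notes; its version and the genome build of the array are not given in the sources used here. The labels give replicates as separate pools of mice and name no hybridisation batch. The table holds 35557 probe sets in 16 arrays, with medians from 6.678 to 6.825. The 21789 probe sets with 1 gene in the platform annotation were used, 1 per gene by highest mean, which left 19938 genes. Probe sets with several genes (1621) or none (12147) gave no call when fitted in the same way. RefSeq tables (GRCm38) served for names, gene order and promoters.

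A mean per group was fitted over all 16 arrays with limma 3.58.1 in R 4.3.3 (8 residual and 5.03 prior degrees of freedom), with two-sided moderated tests and Benjamini-Hochberg adjustment over the 19938 genes at an adjusted p under 0.05. Differences are Pigr-/- minus Pigr+/-, ± SE. The fit was tested on simulated data. Named genes were up to 12 called in each direction, filled by the smallest p among genes with pools apart at both passive levels, up to 3 or 5 genes for other comparisons and up to 4 of each list; symbols of unnamed, predicted, small RNA and receptor genes were left aside. Tmem37 and Ccdc93, like Pm20d1 and Ctse, were the neighbours of Pigr with the smallest p. Igha was added by hand to the IgA and B lineage genes described. Members, lists and tests were chosen with earlier results of these data known. Alternatives were other prior variances, array weights, centring, quantile normalization, a filter on dim genes, all one-gene probe sets, a replicate block, the DSS arrays alone, a looser threshold and leaving out each array. Same-numbered pools after DSS deviated together with passive SIgA (r = 0.51) but not without (0.01) or across passive levels (-0.28 to -0.16). Over all 28 pairs of groups the correlation ran from -0.30 to 0.67, and over the 6 untreated pairs from 0.04 to 0.45. Not every pair was thus above 0.1, so the numbers were not taken to pair them.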

Additional observations from a re-analysis of the deposited data

Results flagged for a closer look

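In 6 named genes of the 168 called, the difference between Pigr-/- and Pigr+/- pools after DSS differed from that in untreated mice by the test of that difference (limma adjusted p under 0.05). It was more positive after DSS in the zinc finger gene Zfp600 (1.5283, adjusted p = 0.000475), the placental hormone gene Prl3d3 (1.3384, adjusted p = 0.0360), Cyp2c39 (1.3019, adjusted p = 0.0141), Skint11 (1.1497, adjusted p = 0.0452) and the defensin gene Defb4 (1.0828, adjusted p = 0.00493), and more negative in Klb (-0.50777, adjusted p = 0.0428). These were the calls with the largest differences, up to 5 in each direction, after symbols of unnamed, predicted, small RNA and chemosensory receptor genes were left aside; some of those left aside had larger differences or smaller p.

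In Zfp600 the 4 Pigr-/- pools after DSS read 2.61, 2.72, 2.97 and 2.92 and the Pigr+/- pools 2.82, 2.44, 2.58 and 2.62, near the bottom of the scale. Its untreated Pigr+/- pools with passive SIgA read 5.65 and 5.57, where the untreated pools without it read 2.64 and 2.50. Defb4 had the same arrangement, with 5.72 and 5.71 in those pools with passive SIgA and 4.38 and 4.19 in those without. From the pairs without passive SIgA alone the value fell short of the threshold in each of the 6 (adjusted p = 0.924), at 0.34 in Zfp600, 0.82 in Prl3d3, 0.84 in Cyp2c39, 0.78 in Skint11, 0.28 in Defb4 and -0.32 in Klb. In none of the 6 did the difference after DSS pass by itself. Skint11, Klb, Prl3d3 and Cyp2c39 did not keep the call in every case with 1 array left out. Their values then ran from 0.99 to 1.31, -0.54 to -0.47, 1.05 to 1.63 and 1.14 to 1.46.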

How the results depend on the processing

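Pigr was the only gene called after DSS (count 1) under each of the 19 alternatives run. An alternative added after the data were seen was the difference without passive SIgA already given (-0.92, limma adjusted p = 0.0157). It left both Pigr+/- arrays with passive SIgA out of the contrast but not out of the fit, which still took its spread from them. None of the other 66 genes named passed in the mean comparison after DSS under any alternative. With 1 array left out, the values of 25 moved by over 1.5 times and that of 1 (Igha) turned its sign. With the replicate block the count was also 1, and it moved the untreated count to 2326. Within a passive level the count was 0 to 2 with passive SIgA (2 with arrays centred on their median, 2 at an adjusted p under 0.1, 0 from the 8 DSS arrays alone, 0 to 2 with 1 array left out) and 0 without it from the 8 DSS arrays alone and with any 1 array left out (0 to 0). There Pigr stood at -1.01 (adjusted p = 0.116) and -0.92 (adjusted p = 0.26) from the 8 DSS arrays, and between -1.04 and -0.99 and between -0.97 and -0.86 with 1 array left out, so that fewer arrays ended the call and not the direction. The count for the difference between passive levels was 0 to 1 with 1 array left out. The untreated count was 635 with quantile normalization, 19 without the dimmest 30% of genes, 2934 at an adjusted p under 0.1, 476 to 4718 with 1 array left out and 0 from the pairs without passive SIgA (Pigr -0.57, adjusted p = 0.411). The count for the difference between DSS and untreated was 105 with a trend in the prior variance, 308 with centred arrays, 79 with quantile normalization, 5 without the dimmest genes, 311 at an adjusted p under 0.1, 34 to 527 with 1 array left out and 0 from the pairs without passive SIgA; the cause was not tested. The medians of DSS-responsive genes ran from -0.063 to 0.0099 (higher with DSS, -0.01 with all arrays) and from -0.0090 to 0.047 (lower with DSS, 0.00 with all arrays) with 1 array left out. Igha ran from -0.25 to 0.12 with 1 array left out (-0.07 with all arrays), turning to 0.12 without replicate 1 of the Pigr+/- pools with passive SIgA and to 0.07 without replicate 1 of the Pigr-/- pools without it. With 1 array of a group left out, the other was assumed to vary like the remaining groups.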
